A study of Mus musculus with 14 samples.

Results

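The 36 genes described here encode proteins of the complement and coagulation systems that the liver releases into blood plasma. They were chosen by name, as a list of gene symbols, and all 36 were found among the 21878 genes of the deposited tables and passed the filter on low counts. RNA from C57BL/6 mouse hepatocytes, the main cell type of the liver, was sequenced in 14 libraries that form 7 groups of 2. LBDXL 3W and BM 3W YAP-/- are hepatocytes cultured for 3 weeks, the second group carrying the YAP-/- genotype, and FH YAP-/- are freshly isolated hepatocytes of that genotype. FH are freshly isolated hepatocytes without the deletion, and BM 1D, BM 3D and BM 3W are hepatocytes without the deletion after 1 day, 3 days and 3 weeks of culture. The labels do not spell out BM and LBDXL, and they give neither the sex of the animals nor the Cre or promoter behind the deletion. The study asks whether limiting the activation of YAP, a transcriptional co-activator that responds to mechanical tension, keeps hepatocyte functions in culture.

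Complement is a cascade of plasma proteins that marks and lyses microbes. The classical pathway starts with C1, the lectin pathway with mannose-binding lectins and their proteases, and the alternative pathway with C3 and factor B. All 3 converge on the cleavage of C3 and then of C5, after which C5b, C6, C7, C8 and C9 assemble into the membrane attack complex. Coagulation is a second cascade of serine proteases and cofactors that ends when thrombin cuts fibrinogen into fibrin. Plasmin, made from plasminogen, dissolves fibrin again. Hepatocytes are the main source of nearly all of these proteins, and several of them, among them fibrinogen and C3, are acute-phase proteins that interleukin-6 induces.

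Libraries held 15501005 to 21220365 counts. Unless FPKM is named, a level is given in TMM-scaled CPM, which sets the counts of a gene against a library size corrected for composition. FPKM divides by transcript length as well. A gene is called higher or lower where edgeR's quasi-likelihood test gives an adjusted p under 0.05 over 14100 genes, and every log2 fold change is followed by ± its standard error. The labels do not say whether the 2 replicates of a group are separate animals or cultures. The p-values therefore reflect only the spread between these libraries, which may be technical in groups other than LBDXL 3W. The 2 LBDXL 3W libraries had 0 and 214 CPM of Y-linked genes, so they are not technical repeats of 1 sample. Yap1, the targeted gene, had 6.66 and 7.75 CPM in BM 3W YAP-/-, against 80.2 and 95.5 CPM in BM 3W. It had 23.1 and 26.5 CPM in FH YAP-/-, against 87.6 and 97.6 CPM in FH. Summed levels of 8 hepatocyte markers were 160906 to 206310 CPM in LBDXL 3W and 96011.5 to 111461 CPM in BM 3W YAP-/-, against 3293.14 to 32191.2 CPM in BM 3W and 210379 to 213616 CPM in FH. The lowest of these values was that of the second BM 3W library. Alb made up most of each sum, with 186886 and 129833 CPM in LBDXL 3W. In LBDXL 3W against FH the median log2 fold change of the 8 was -1.12, with 1 called lower. Cyp2e1, for example, had 25.8 and 248 CPM in LBDXL 3W and 1.70 and 1.81 CPM in BM 3W YAP-/-. It had 74.4 and 4.19 CPM in BM 3W and 19965 and 21058 CPM in FH. In bulk RNA, fewer cells of a type and less RNA per cell cannot be told apart. Sex is not labelled, yet 4 Y-linked genes together had 0.0690 and 0 CPM in the FH YAP-/- libraries and 0 CPM in the first LBDXL 3W library, against 158 to 312 CPM in the other 11 libraries.

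The fibrinogen genes lie side by side, and their protein is one of the most abundant in plasma, so the 250 bases before the start of each are shown first. The stretches come from RefSeq on GRCm38.p6, run 5′ to 3′ on the strand of the gene, and carry capitals where 1 of 3 motifs matched on either strand. They lie at chr3:83025903-83026152 on the + strand for Fga, at chr3:83049864-83050113 on the - strand for Fgb, and at chr3:83007474-83007723 on the + strand for Fgg.
Fga: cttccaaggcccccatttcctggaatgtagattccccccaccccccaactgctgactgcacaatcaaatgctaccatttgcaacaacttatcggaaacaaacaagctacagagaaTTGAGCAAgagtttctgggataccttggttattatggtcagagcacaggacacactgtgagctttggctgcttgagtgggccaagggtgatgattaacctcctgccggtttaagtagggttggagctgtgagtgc
Fgb: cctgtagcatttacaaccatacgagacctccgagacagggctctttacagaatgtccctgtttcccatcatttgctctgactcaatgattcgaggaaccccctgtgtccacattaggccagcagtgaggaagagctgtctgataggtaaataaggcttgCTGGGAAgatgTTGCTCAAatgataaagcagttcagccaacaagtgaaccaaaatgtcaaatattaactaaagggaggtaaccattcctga
Fgg: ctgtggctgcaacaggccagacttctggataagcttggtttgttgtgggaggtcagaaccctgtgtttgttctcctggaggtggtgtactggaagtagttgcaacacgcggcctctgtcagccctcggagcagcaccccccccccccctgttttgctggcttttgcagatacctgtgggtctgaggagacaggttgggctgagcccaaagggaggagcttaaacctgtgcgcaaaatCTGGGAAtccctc
The motifs searched were those known for HNF4 (CAAAGTNCA) and C/EBP (TTGCNNAA), factors of liver transcription, and the core of the interleukin-6 response element (CTGGGAA). In Fga the only match is a C/EBP motif that ends 128 bases before the start. In Fgb a C/EBP match ends 73 bases before the start and an interleukin-6 element 85 bases before it. In Fgg the only match is an interleukin-6 element that ends 7 bases before the start. No matches overlapped.

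RefSeq promoter entries were found for 28 of the 36 members, and the same motifs were searched in 32851 mouse promoters of the same length. The 1 HNF4 match among the members, in F9, the gene of factor IX, is given with 10 bases on either side.
F9 (HNF4, chrX:59999398-59999426, + strand): ccattcagctTGCACTTTGgaacgattga
The 28 members had 30 promoter entries. The C/EBP motif was in 8 of these 30, a share of 26.7%, against 9.56% of all promoters. The interleukin-6 core was in 4, those of F9, Fgb, Fgg and Masp2, a share of 13.3% against 9.10%. The matches of F9, F11 and Masp2 lie inside the RefSeq spans of these genes, since some promoter entries use a start within the span. HNF4 matched in 3.33% of the members' promoters and 1.19% of all promoters. A match describes these letters and does not show that a factor binds there.

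In freshly isolated cells the members covered a wide range of levels per length. By the authors' FPKM, Fgb, the beta chain of fibrinogen, averaged 2083 and was the 18th most abundant of all genes in FH. C3, the hub of complement, averaged 1558 FPKM (rank 25), and Fga, the alpha chain of fibrinogen, 1148 FPKM (rank 42). Vtn, the gene of the adhesion protein vitronectin, and Fgg, the gamma chain of fibrinogen, followed at 1122 and 1093 FPKM. At the other end, F7, the factor that starts coagulation together with tissue factor, averaged 28.9 FPKM, Pros1, the cofactor protein S, 23.6 FPKM, and Masp1, a protease of the lectin pathway, 13.7 FPKM (rank 2332). Together the members held 5.67 and 5.71% of all counts in the FH libraries. That share was 2.42 and 2.20% in BM 1D, 1.78 and 2.54% in BM 3D, and 1.52 and 0.835% in BM 3W. LBDXL 3W libraries held 3.14 and 2.30%, BM 3W YAP-/- libraries 4.58 and 3.74%, and FH YAP-/- libraries 5.73 and 5.67%. Among the groups of 3 weeks, both BM 3W YAP-/- libraries and both LBDXL 3W libraries lay above both BM 3W libraries.

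**Figure D1:**
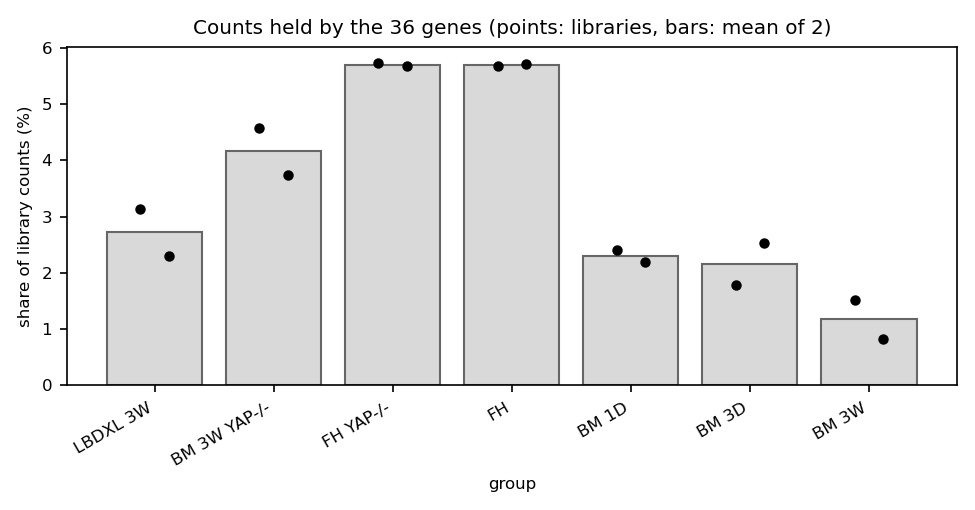
Share of the counts of each library, in percent, that fell on the 36 members, with bars for the mean of 2 libraries and points for each library. FH and FH YAP-/- libraries reach 5.67 to 5.73%, while the BM 3W libraries reach 1.52 and 0.835%.

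BM culture came with lower levels of nearly all members from 1 day on. In BM 1D, 30 of 36 members were called lower than in FH and 0 higher, where 20.2% of all genes were called lower. In BM 3D, 27 were called lower and 0 higher (17.9% of all genes lower), and in BM 3W 34 were called lower and 0 higher (26.1% of all genes lower). The median log2 fold change of the members against FH was -2.36 in BM 1D, -2.38 in BM 3D and -4.01 in BM 3W, where the median of all genes was 0.17 in each. Expressed as a share of the FH mean in TMM-scaled CPM, the median member stood at 19.5% in BM 1D, 19.3% in BM 3D and 6.20% in BM 3W. The authors' FPKM put some members nearer to FH, as given below. Members under 10% of FH numbered 6, 10 and 27 at these 3 times. None of the members called here had libraries that overlapped between the groups. In this and the later comparisons, that adds little to the calls, since these members were picked by their call. The share of all genes without overlap was not computed. Counts under alternative fits come without the share of all genes called in that fit, unless a share is printed. Such a count may move as all genes do. With total counts alone in place of TMM scaling, the median of all genes moved to 1.46 in BM 3W against FH (9282 higher and 1364 lower, in place of 4653 and 3675) and to 1.08 in BM 1D. With it 18 members were called lower in BM 1D, against 9.58% of all genes. Leaving out the second BM 1D library also left 18.

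**Figure D2:**
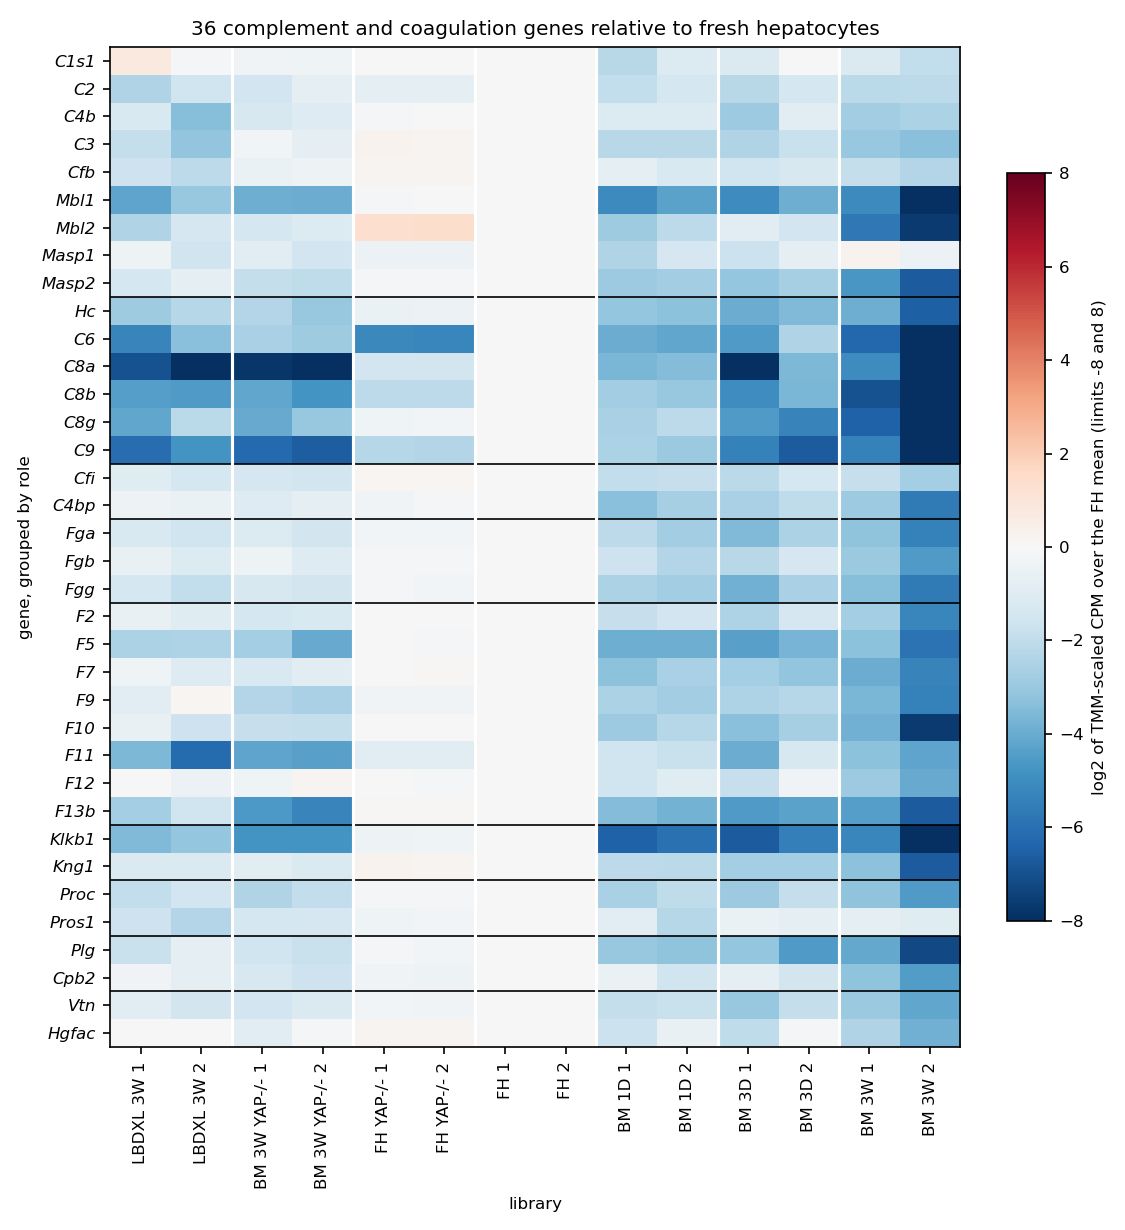
Level of each member in each library as log2 of the ratio of its TMM-scaled CPM to the FH mean, with members grouped by role and libraries by group. The BM 3W columns are the lowest for most members, and C8a and C9 are low in all 3 groups of 3 weeks.

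The 9 genes of complement activation had a median log2 fold change of -2.65 in BM 3W against FH, with the lowest values in the lectin pathway. C3 had 20579.8 and 20589.5 CPM in FH, 4332 and 4345 CPM in BM 1D, 3841 and 6082 CPM in BM 3D and 2514 and 2008 CPM in BM 3W. Both libraries of each cultured group lay below both FH libraries, and the log2 fold change of BM 3W to FH was -3.19 ± 0.58 (adjusted p = 0.000819). Cfb, the protease of the alternative pathway, had 1847 and 1872 CPM in FH, 1150.2 and 793 CPM in BM 1D, 616 and 749.5 CPM in BM 3D and 496 and 369 CPM in BM 3W. Its mean in BM 1D was 52.3% of FH, the highest of the 36 at that time. By the authors' FPKM its libraries overlapped, with 310 and 226 in BM 1D against 294 and 294 in FH. Of the genes shared by the classical and lectin pathways, C2 was lower in BM 3W than in FH by a log2 fold change of -2.14 ± 0.37 and C4b by -2.65 ± 0.72. C1s1, a protease of the C1 complex, had 919.6 and 895 CPM in FH, 195 and 421 CPM in BM 1D, 409 and 901 CPM in BM 3D and 405 and 228 CPM in BM 3W. In BM 3D the second library stood at the FH level and the first far below it, and the call of C1s1 in BM 3W (-1.52 ± 0.50, adjusted p = 0.0214), like that of C4b, did not hold under every alternative processing.

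Of the lectins, Mbl1 was low from 1 day on, and Mbl2 fell further between 3 days and 3 weeks. Mbl1, which encodes mannose-binding lectin A, had 237 and 229 CPM in FH and 6.91 and 12.2 CPM in BM 1D, and its libraries stayed at 7.17 and 15.5 CPM in BM 3D and 6.79 and 0.719 CPM in BM 3W. Mbl2, which encodes mannose-binding lectin C, had 494 and 497 CPM in FH, 67.97 and 117 CPM in BM 1D, 270.0 and 171 CPM in BM 3D and 9.26 and 2.46 CPM in BM 3W. Mbl2 was not called lower in BM 3D than in FH, and it was called lower in BM 3W than in BM 3D by a log2 fold change of -5.24 ± 0.64 (adjusted p = 0.000337). Masp2, the protease that cleaves C4 and C2 in this pathway, had 492 and 470.3 CPM in FH and 19.4 and 4.76 CPM in BM 3W. Its log2 fold change was -5.32 ± 0.58 (adjusted p = 3.29e-05), although 1817 of its exon bases overlap Tardbp on the opposite strand, and the sources used here do not state whether counting used strand. Masp1 had 315 and 182 CPM in BM 3W, against 255 and 258 CPM in FH. These libraries overlapped, and Masp1 was 1 of 2 members not called (-0.05 ± 0.48, adjusted p = 0.943). The sign of the Masp1 value depends on scaling, since total counts alone gave 1.22 and limma on log2(FPKM + 1) gave 1.41. Beside it, summed levels of 12 stellate cell and fibroblast markers were 11208 to 14861 CPM in BM 3W, against 111 to 134 CPM in FH. The part of these cells in the Masp1 level was not tested.

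Genes of the membrane attack complex lay furthest below FH after 3 weeks of BM culture. All 6 were called lower in BM 3W than in FH, with a median log2 fold change of -6.60. C8b, the beta chain of C8, had 1321 and 1329 CPM in FH, 196 and 160.3 CPM in BM 1D, 42.3 and 103 CPM in BM 3D and 10.7 and 0.150 CPM in BM 3W. The second BM 3W library held 5 counts of C8b, and the log2 fold change of BM 3W to FH was -7.94 ± 1.35 (adjusted p = 0.000526), the largest of the 36. C8a, the alpha chain, had 1945 and 1962 CPM in FH and 152 and 174 CPM in BM 1D, and its libraries differed widely later, at 7.94 and 161 CPM in BM 3D and 60.1 and 6.02 CPM in BM 3W. C8g, the gamma chain, had 265 and 258 CPM in FH and 2.95 and 0.719 CPM in BM 3W (-7.16 ± 0.84). C9, the protein that forms the pore, had 1953 and 2035 CPM in FH, 352 and 256 CPM in BM 1D, 46.5 and 19.8 CPM in BM 3D and 47.8 and 7.996 CPM in BM 3W. It was the only member called between BM 3D and BM 1D (-3.19 ± 0.74, adjusted p = 0.0346), where 1.60% of all genes were called lower. That single call was lost without either FH library, without BM 1D 2, and without any library of BM 3D, BM 3W YAP-/- or FH YAP-/-. Hc, which encodes C5, and C6 were lower in BM 3W than in FH by log2 fold changes of -4.69 ± 0.72 and -7.03 ± 1.02.

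**Figure D3:**
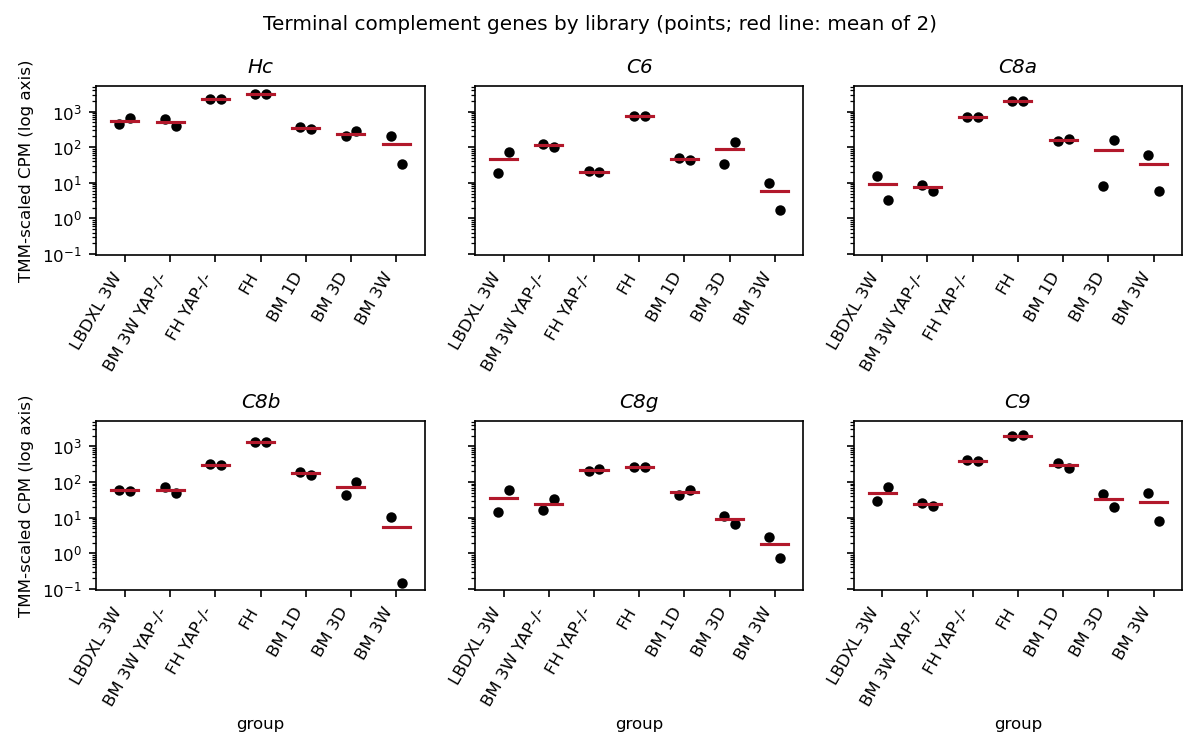
Levels of the 6 terminal complement genes in every library, in TMM-scaled CPM on a log10 axis, with 1 point per library. All 6 sit below FH in the cultured groups, and C6 in FH YAP-/- sits at 21.05 and 20.2 CPM against 757 and 744 CPM in FH.

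Both inhibitors of complement on the list were lower in BM 3W. Cfi, the protease that inactivates C3b and C4b, had 387 and 213 CPM in BM 3W, against 1403 and 1406 CPM in FH. C4bp, its cofactor for C4b, had 104 and 15.2 CPM in BM 3W, against 773 and 791 CPM in FH. The log2 fold changes were -2.23 ± 0.37 for Cfi and -3.72 ± 0.69 for C4bp, and in both genes the second BM 3W library was the lower one.

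The 3 fibrinogen chains moved together in direction, yet not in the same proportion. Fga had 9437 and 9549 CPM in FH, 2258 and 1374 CPM in BM 1D, 821 and 1623 CPM in BM 3D and 1013 and 224 CPM in BM 3W. Fgb had 9296 and 9204 CPM in FH, 2951 and 1793 CPM in BM 1D, 2016 and 3657 CPM in BM 3D and 1196 and 401 CPM in BM 3W. Fgg had 5457 and 5647 CPM in FH, 943 and 818 CPM in BM 1D, 386 and 923 CPM in BM 3D and 515 and 109 CPM in BM 3W. In all 3 genes every cultured BM library lay below FH, with log2 fold changes in BM 3W of -3.94 ± 0.71, -3.53 ± 0.63 and -4.15 ± 0.71 for Fga, Fgb and Fgg. Per length, Fgb made up 47.6 to 48.7% of the summed FPKM of the 3 chains in FH, 54.2 to 57.5% in BM 1D, 67.7 to 69.2% in BM 3D and 53.0 to 63.5% in BM 3W. Its share was 60.3 to 63.1% in LBDXL 3W, 55.0 to 61.8% in BM 3W YAP-/- and 47.8 to 48.6% in FH YAP-/-. Every cultured library thus had a higher Fgb share than every fresh one. Fgg lies 11097 bases before Fga on chromosome 3, and Fga 8619 bases before Fgb.

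All 8 coagulation factors on the list were called lower in BM 3W than in FH, with a median log2 fold change of -4.19. F2, which encodes prothrombin, had 2689 and 2676 CPM in FH, 745 and 948 CPM in BM 1D, 493 and 1050.1 CPM in BM 3D and 402 and 72.2 CPM in BM 3W. F5, the cofactor that speeds the cleavage of prothrombin, had 2581 and 2577 CPM in FH and 169.8 and 171 CPM in BM 1D (6.60% of FH), and averaged 6.24% of FH in BM 3D and 5.89% in BM 3W. F9, whose product is missing in haemophilia B, had 519 and 506 CPM in FH and 40.3 and 12.3 CPM in BM 3W (-4.28 ± 0.53, adjusted p = 6.65e-05). The neighbours F7 and F10, 1499 bases apart on chromosome 8, encode the factors that start coagulation and that form prothrombinase. They had log2 fold changes of -4.51 ± 0.47 and -4.77 ± 0.94 in BM 3W against FH. F11 and F12, which act in the intrinsic pathway, were not called lower in BM 1D or in BM 3D. By 3 weeks F11 had 28.5 and 14.8 CPM in BM 3W, against 277 and 282 CPM in FH, and F12 had 77.9 and 36.8 CPM in BM 3W, against 600.2 and 582 CPM in FH. F13b, the carrier subunit of the factor that cross-links fibrin, had 559 and 563 CPM in FH, 50.9 and 40.1 CPM in BM 1D, 24.6 and 28.5 CPM in BM 3D and 26.4 and 5.54 CPM in BM 3W.

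Klkb1, which encodes plasma prekallikrein of the contact system, showed the largest difference at 1 day. It had 792 and 820.2 CPM in FH, 8.94 and 13.1 CPM in BM 1D, 7.94 and 18.03 CPM in BM 3D and 21.98 and 2.70 CPM in BM 3W. The cultured BM libraries did not overlap FH at any time, and BM 1D stood at 1.36% of FH (-6.20 ± 0.85, adjusted p = 0.00024). F11, a close relative 4633 bases away on chromosome 8, stood at 31.1% of FH in the same libraries. Kng1, the kininogen that kallikrein cleaves, had 4539.9 and 4732 CPM in FH, 1072 and 1052 CPM in BM 1D, 709.7 and 714 CPM in BM 3D and 479.6 and 46.1 CPM in BM 3W.

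Of the anticoagulants, Proc, which encodes protein C, was called lower in BM 3W than in FH, and Pros1, its cofactor protein S, was not. Proc had 66.3 and 26.9 CPM in BM 3W, against 638 and 623 CPM in FH (-3.76 ± 0.48). Pros1 had 84.2 and 73.8 CPM in BM 3W, against 143 and 141 CPM in FH. The Pros1 libraries did not overlap, yet the difference of -0.85 ± 0.38 was not called (adjusted p = 0.073). Its sign also changed with total counts alone, to 0.44. Plg, the precursor of plasmin, had 5233 and 5412 CPM in FH, 652 and 566 CPM in BM 1D, 610.3 and 228 CPM in BM 3D and 317 and 36.2 CPM in BM 3W. Cpb2, a carboxypeptidase that slows fibrinolysis, had 646 and 680.2 CPM in FH, 459 and 217 CPM in BM 1D, 410.4 and 244 CPM in BM 3D and 70.6 and 29.6 CPM in BM 3W. Cpb2 averaged 50.98% of FH in BM 1D and 49.3% in BM 3D, where it was not called, and was called lower in BM 3W than in BM 3D (-2.71 ± 0.48, adjusted p = 0.00274). Vtn had 438 and 194 CPM in BM 3W, against 3457 and 3469 CPM in FH. Hgfac, the protease that activates hepatocyte growth factor, had 41.8 and 15.8 CPM in BM 3W, against 231 and 216 CPM in FH.

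Between 3 days and 3 weeks of BM culture, 12 members were called lower and 0 higher, where 10.9% of all genes were called lower. The 12 were Mbl2, C6, C8b, Cpb2, F12, Masp2, C8g, Hgfac, F9, Fgb, F7 and Proc, with log2 fold changes of -5.24 (Mbl2) to -1.43 (Proc). The median over the members was -1.39, and that of all genes was -0.10. The count rested on single libraries, since 6 were called without BM 3D 2, 25 without BM 3W 1 and 4 without BM 3W 2. Mbl2 and Cpb2 kept their call under all 24 alternatives.

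After 3 weeks in LBDXL culture, all terminal complement genes were called lower than in FH, while the fibrinogen chains and 5 of 8 coagulation factors were not called. In LBDXL 3W against FH, 18 members were called lower and 0 higher, where 9.60% of all genes were called lower. The median log2 fold change was -1.69, and that of all genes was 0.09. Lower were 6 of 6 terminal complement genes, 5 of 9 genes of complement activation and 1 of 2 complement inhibitors, but 0 of 3 fibrinogen chains and 3 of 8 coagulation factors. Genes known to be biased by sex in liver also differed between LBDXL 3W and FH, as given below, and their part was not tested. With total counts alone the median of all genes moved to 0.57 (3593 higher and 822 lower, in place of 1656 and 1353), and 16 members were called lower. The count depended on single libraries. It was 9 without either FH library and 8 without LBDXL 3W 1, the library with no Y-linked counts. Of the 6 terminal genes, C6, C8a and C9 stayed called without either FH library, and C8a and C9 without LBDXL 3W 1, where the values of all 6 ran from -9.22 (C8a) to -2.17 (C8g).

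C8a had 15.3 and 3.26 CPM in LBDXL 3W, against 1945 and 1962 CPM in FH, with a difference of -7.71 ± 1.54 on the log2 scale (adjusted p = 0.00567). C9 had 29.2 and 72.1 CPM in LBDXL 3W, against 1953 and 2035 CPM in FH (-5.30 ± 0.82, adjusted p = 0.00148). Neither gene's libraries came near each other between the groups, and C8a stood at 0.474% of FH, the lowest of the 36. The other terminal genes were less far down. C8b had 61.5 and 56.97 CPM in LBDXL 3W, against 1321 and 1329 CPM in FH, and C6 had 18.97 and 73.3 CPM, against 757 and 744 CPM in FH. Hc had 444 and 661 CPM in LBDXL 3W, against 3146 and 3181 CPM in FH (-2.52 ± 0.65).

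C3 had 5482 and 2338 CPM in LBDXL 3W, against 20579.8 and 20589.5 CPM in FH (-2.40 ± 0.56, adjusted p = 0.0123). Cfb had 591 and 437 CPM in LBDXL 3W, against 1847 and 1872 CPM in FH (-1.85 ± 0.32), and C2 had 37.2 and 65.2 CPM, against 199 and 202 CPM in FH (-1.97 ± 0.36). All LBDXL 3W libraries were below all FH libraries for these 3 genes. Cfb and C2 lie 88 bases apart on chromosome 17. C1s1 had 1592 and 852 CPM in LBDXL 3W, against 919.6 and 895 CPM in FH, so its libraries overlapped (0.43 ± 0.49, adjusted p = 0.574). Of the lectins, Mbl1 (-3.48 ± 0.78) and Mbl2 (-1.78 ± 0.55) were called lower. Masp2, at 182 and 285 CPM in LBDXL 3W against 492 and 470.3 CPM in FH, was not called (adjusted p = 0.153).

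The fibrinogen chains averaged 37.9% (Fga), 56.02% (Fgb) and 31.9% (Fgg) of FH in LBDXL 3W by TMM-scaled CPM. The authors' FPKM put them nearer to FH. They averaged 704 (Fga), 1974 (Fgb) and 523 (Fgg) FPKM in LBDXL 3W, against 1148, 2083 and 1093 FPKM in FH. Fgb had 6024 and 4339 CPM in LBDXL 3W, against 9296 and 9204 CPM in FH, Fga 4102 and 3090.3 CPM, against 9437 and 9549 CPM in FH, and Fgg 2135 and 1407 CPM, against 5457 and 5647 CPM in FH. The LBDXL 3W libraries were lower for each chain, but no difference was called, with adjusted p from 0.0928 for Fgg to 0.333 for Fgb. F9 had 282 and 561 CPM in LBDXL 3W, against 519 and 506 CPM in FH, and its libraries overlapped (-0.28 ± 0.46, adjusted p = 0.709). F12 had 576 and 436 CPM in LBDXL 3W, against 600.2 and 582 CPM in FH (-0.22 ± 0.49), and Hgfac 231 and 225 CPM, against 231 and 216 CPM in FH (0.03 ± 0.59). With standard errors of this size, a p that misses the threshold does not show equal levels.

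Of the coagulation factors, F5, F11 and F13b were called lower in LBDXL 3W than in FH. F11 had 23.2 and 3.99 CPM in LBDXL 3W, against 277 and 282 CPM in FH (-4.36 ± 0.89, adjusted p = 0.00635). F5 had 448 and 459.9 CPM in LBDXL 3W, against 2581 and 2577 CPM in FH (-2.51 ± 0.69), and F13b 86.6 and 184 CPM, against 559 and 563 CPM in FH (-2.05 ± 0.59). In each of these 3 genes both LBDXL 3W libraries lay below both FH libraries. Klkb1 had 68.8 and 96.4 CPM in LBDXL 3W, against 792 and 820.2 CPM in FH (-3.29 ± 0.74). Both anticoagulants were called lower as well, Proc by -1.74 ± 0.44 and Pros1 by -1.95 ± 0.39 (adjusted p = 0.00567). Under all 24 alternatives the calls of C2, Cfb, C8a, C9 and Pros1 held.

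**Figure D4:**
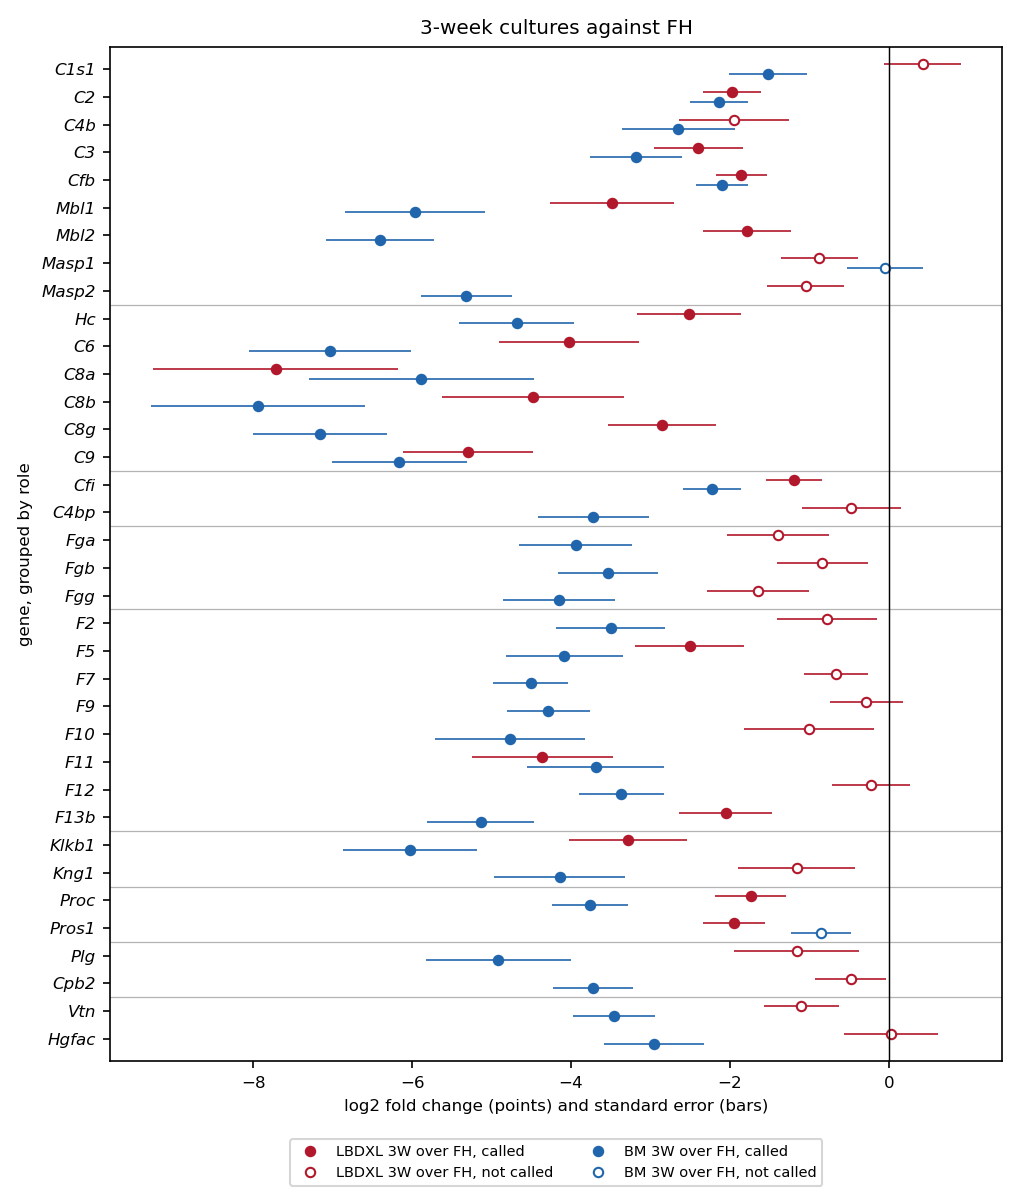
Log2 fold change of each member against the same FH libraries in LBDXL 3W and in BM 3W, with members grouped by role. Points mark fitted values and bars their standard error, and the terminal complement genes C8a and C9 lie far below 0 in both.

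Set against BM 3W, the other culture of the same age, LBDXL 3W had higher levels of most members. Higher were 26 of 36, where 21.1% of all genes were called higher, and 1 was lower, where 23.7% of all genes were. The median log2 fold change was 2.62 over the members and -0.02 over all genes. No libraries of the 27 called members overlapped. Fitted on the LBDXL 3W and BM 3W libraries alone, 11 members were called, while leaving out LBDXL 3W 1 gave 25 higher and 3 lower, and leaving out BM 3W 2 gave 22 higher and 0 lower. With total counts alone, the median of all genes moved to -0.84, and 23 members were higher and 2 lower, while all genes split into 1135 higher and 6650 lower in place of 2980 and 3343.

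F7 had 123 and 76.1 CPM in LBDXL 3W, against 10.05 and 3.80 CPM in BM 3W (3.85 ± 0.45, adjusted p = 0.000137). F9 had 282 and 561 CPM in LBDXL 3W, against 40.3 and 12.3 CPM in BM 3W (4.004 ± 0.52, adjusted p = 0.000227). For both genes the lower LBDXL 3W library stood well above the higher BM 3W library. Masp2 had 182 and 285 CPM in LBDXL 3W, against 19.4 and 4.76 CPM in BM 3W (4.27 ± 0.55), and Mbl2 94.5 and 193 CPM, against 9.26 and 2.46 CPM in BM 3W (4.62 ± 0.63). Fga, Fgb and Fgg were higher by 2.54 ± 0.67, 2.70 ± 0.60 and 2.50 ± 0.66 on the log2 scale. F12 (3.14 ± 0.53), C4bp (3.25 ± 0.68), F13b (3.09 ± 0.61) and Klkb1 (2.74 ± 0.73) were higher too.

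Of the 10 members not called higher in LBDXL 3W, 5 belong to complement activation (C2, C4b, C3, Cfb and Masp1), and the others were C8a, C9, F5, F11 and Pros1. C3 had 5482 and 2338 CPM in LBDXL 3W, against 2514 and 2008 CPM in BM 3W (0.79 ± 0.54, adjusted p = 0.255), and Cfb 591 and 437 CPM, against 496 and 369 CPM in BM 3W (0.25 ± 0.31, adjusted p = 0.549). The C3 value in LBDXL 3W 1 stood above both BM 3W libraries, while LBDXL 3W 2 lay between them. C8a had 15.3 and 3.26 CPM in LBDXL 3W, against 60.1 and 6.02 CPM in BM 3W (-1.83 ± 1.20), with overlapping libraries. Pros1 was the 1 member called lower, at 45.8 and 28.1 CPM in LBDXL 3W against 84.2 and 73.8 CPM in BM 3W (-1.10 ± 0.38, adjusted p = 0.0362). Masp1 had 194 and 86.1 CPM in LBDXL 3W, against 315 and 182 CPM in BM 3W, and was called lower only with total counts alone (-1.61). Marker sums moved with this comparison: stellate cell and fibroblast markers summed to 294 to 626 CPM in LBDXL 3W, against 11208 to 14861 CPM in BM 3W. Macrophage markers (12 genes, Clec4f and Timd4 at 0 in LBDXL 3W) summed to 2.38 to 3.20 CPM in LBDXL 3W, against 1327 to 1372 CPM in BM 3W. Cholangiocyte and progenitor markers (10 genes) summed to 34.4 to 61.8 CPM in LBDXL 3W, against 4498 to 5225 CPM in BM 3W. Spp1 alone had 4338 and 5038 CPM in BM 3W, and all 8 of these markers that were tested were called lower in LBDXL 3W. Markers of sinusoidal endothelium (11 genes) summed to 212 CPM in LBDXL 3W 1 and 13.2 CPM in LBDXL 3W 2, against 211 to 264 CPM in BM 3W. Of these 11, 4 were called higher and 1 lower in LBDXL 3W. The part of other cells in the levels of the members was not tested.

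Loss of YAP also came with higher levels of many members in BM culture. In BM 3W YAP-/- against BM 3W, 24 of 36 were called higher and 0 lower, where 15.0% of all genes were called higher. The median log2 fold change was 2.17 over the members and -0.03 over all genes, and no libraries of the 24 overlapped. All 3 fibrinogen chains, 4 of 6 terminal genes, 5 of 9 genes of complement activation and 5 of 8 coagulation factors were among them. Without the second BM 3W YAP-/- library 14 were called, and without the second BM 3W library 18. With total counts alone, 21 were higher and 2 lower, and the median of all genes was -0.66 (798 higher and 5053 lower, in place of 2117 and 2342). This comparison and the one of LBDXL 3W share the BM 3W libraries.

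C3 had 17392 and 12409 CPM in BM 3W YAP-/-, against 2514 and 2008 CPM in BM 3W, and the log2 fold change was 2.72 ± 0.57 (adjusted p = 0.00541). Cfb had 1308 and 1384 CPM in BM 3W YAP-/-, against 496 and 369 CPM in BM 3W (1.64 ± 0.32, adjusted p = 0.00416). For both genes each YAP-/- library stood above each BM 3W library by more than the spread within a group. Mbl2 had 190.1 and 236 CPM in BM 3W YAP-/-, against 9.26 and 2.46 CPM in BM 3W (5.19 ± 0.64), the largest value of the 36, and Masp2 130.4 and 118 CPM, against 19.4 and 4.76 CPM in BM 3W (3.36 ± 0.53). C2 was higher by 1.06 ± 0.35. Masp1, at 135 and 87.6 CPM in BM 3W YAP-/- against 315 and 182 CPM in BM 3W, was not called (with total counts alone it was called lower, at -1.78).

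C6 had 127 and 102 CPM in BM 3W YAP-/-, against 9.71 and 1.77 CPM in BM 3W (4.33 ± 0.90, adjusted p = 0.00539). C8b had 73.6 and 48.7 CPM in BM 3W YAP-/-, against 10.7 and 0.150 CPM in BM 3W (3.50 ± 1.11), and C8g 16.1 and 32.6 CPM, against 2.95 and 0.719 CPM in BM 3W (3.74 ± 0.74). C8a, which lies 11131 bases from C8b on chromosome 4, was not among the genes called, at 8.80 and 5.99 CPM in BM 3W YAP-/- against 60.1 and 6.02 CPM in BM 3W (-2.16 ± 1.21, adjusted p = 0.192). Its libraries overlapped, and the BM 3W level rested on the first library. Per length, C8a made up 2.94 to 4.29% of the summed FPKM of the 3 C8 chains in BM 3W YAP-/- and 1.05 to 8.50% in LBDXL 3W. Its share was 65.6 to 66.0% in BM 3W and 37.9 to 38.1% in FH. In BM 3D it was 6.19% in the first library and 46.0% in the second, in BM 1D 23.1 to 26.4% and in FH YAP-/- 31.0 to 32.3%. The share in the second BM 3W library rests on 201 counts of C8a, 5 of C8b and 24 of C8g. C9 had 26.5 and 21.1 CPM in BM 3W YAP-/-, against 47.8 and 7.996 CPM in BM 3W, with overlapping libraries.

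Fga, Fgb and Fgg were higher in BM 3W YAP-/- than in BM 3W by log2 fold changes of 2.69 ± 0.67, 2.86 ± 0.61 and 2.81 ± 0.67. Fgb, for example, had 7094 and 4474 CPM in BM 3W YAP-/-, against 1196 and 401 CPM in BM 3W. F12 had 475 and 675 CPM in BM 3W YAP-/-, against 77.9 and 36.8 CPM in BM 3W (3.32 ± 0.54), and F7 67.3 and 86.1 CPM, against 10.05 and 3.80 CPM in BM 3W (3.47 ± 0.45). Plg (3.23 ± 0.85) and Kng1 (3.15 ± 0.79) were also higher. F5, F11 and F13b were not called, and F11 had 14.9 and 13.7 CPM in BM 3W YAP-/-, against 28.5 and 14.8 CPM in BM 3W. F13b had 23.3 and 14.2 CPM in BM 3W YAP-/-, against 26.4 and 5.54 CPM in BM 3W (0.23 ± 0.57, adjusted p = 0.781). Under all 24 alternatives the calls of C3, C4bp, C6, C8g, Cfb, Cpb2, F12, F7, Fga, Fgb, Fgg, Masp2 and Mbl2 held. Marker sums differed here too. Stellate cell and fibroblast markers summed to 461 to 541 CPM in BM 3W YAP-/-, against 11208 to 14861 CPM in BM 3W, and macrophage markers to 230 to 235 CPM, against 1327 to 1372 CPM in BM 3W. Cholangiocyte and progenitor markers summed to 147 to 163 CPM in BM 3W YAP-/-, against 4498 to 5225 CPM in BM 3W. Spp1 alone had 4338 and 5038 CPM in BM 3W, and of the 8 markers tested 3 were called lower and 5 not called. Those of sinusoidal endothelium (11 genes) summed to 27.9 to 37.5 CPM, against 211 to 264 CPM in BM 3W. Stab1 alone had 146 and 216 CPM in BM 3W, and of the 11 markers 4 were called lower and 7 not called. Against FH, 7 of the 11 were already lower in BM 3W and 1 higher. The part of other cells was not tested here either.

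**Figure D5:**
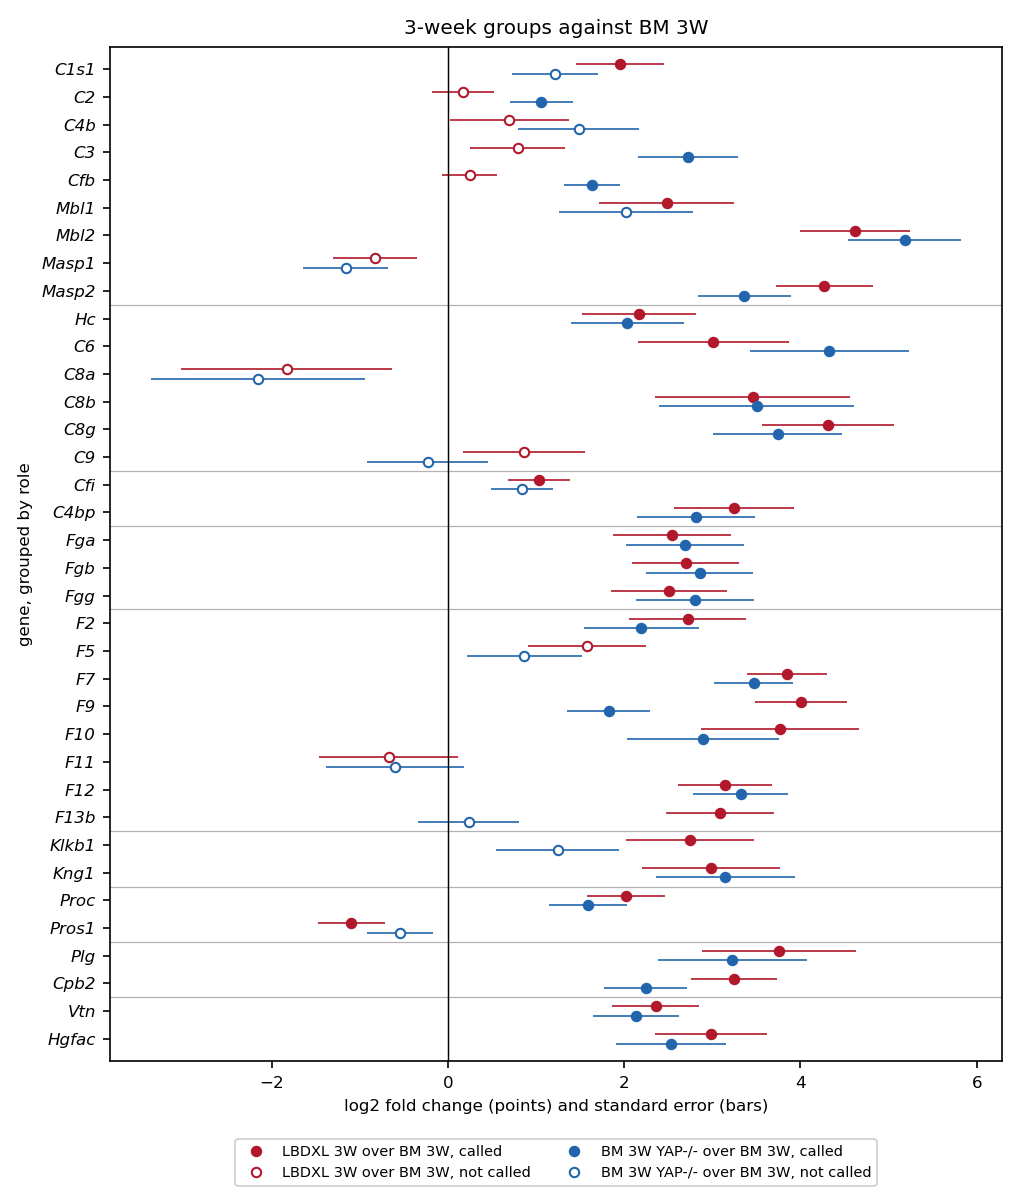
Log2 fold change of each member in LBDXL 3W and in BM 3W YAP-/- against the same BM 3W libraries, in TMM-scaled CPM, with bars for the standard error. Most members lie above 0 in both, and C4b, Masp1, C8a, C9, F5, F11 and Pros1 are not called higher in either.

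In freshly isolated cells, YAP-/- came with 1 called difference among the members. C6, at chr15:4727067-4804045 on GRCm38.p6, had 21.05 and 20.2 CPM in FH YAP-/-, against 757 and 744 CPM in FH, with a difference of -5.19 ± 0.94 on the log2 scale (adjusted p = 0.0288). All genes called lower made up 0.454% of those tested, and 0 members were called higher. The call of C6 was lost without any 1 library of FH, FH YAP-/- or BM 3W YAP-/-, with adjusted p of 0.0573 to 0.351, while its value stayed at -5.22 to -5.15. C9 had 403 and 386 CPM in FH YAP-/-, against 1953 and 2035 CPM in FH (-2.34 ± 0.72, adjusted p = 0.244), and C8b 312 and 307 CPM, against 1321 and 1329 CPM in FH (-2.10 ± 1.03, adjusted p = 0.632). C8a had 685 and 711 CPM in FH YAP-/-, against 1945 and 1962 CPM in FH, and Mbl2 1235 and 1314 CPM, against 494 and 497 CPM in FH. The libraries of these 4 genes did not overlap between the groups, and none of the 4 was called in the fit of all 14 libraries. Fitted on the 4 fresh libraries alone, whose replicates were close to each other, 6 members were called higher and 19 lower, where 18.1% and 19.4% of all genes were. The 6 were C3, Cfb, Mbl2, Cfi, Kng1 and Hgfac. The fibrinogen chains differed by -0.23 (Fga) to -0.11 (Fgb) on the log2 scale, with Fgb at 8749 and 8364 CPM in FH YAP-/-, against 9296 and 9204 CPM in FH.

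The FH YAP-/- libraries differed from FH in more than the deletion. Beside the near absence of Y-linked counts, 10 genes known to be higher in male mouse liver summed to 490 to 575 CPM in FH YAP-/-, against 26655 to 26955 CPM in FH. A further 10 known to be higher in female liver summed to 3882 to 3953 CPM in FH YAP-/-, against 6.96 to 7.40 CPM in FH. Terminal complement components are known to be higher in male than in female mice. The difference of C6, C8a, C8b and C9 by genotype therefore cannot be told apart from one that goes with these genes. The LBDXL 3W libraries also differed from FH in these genes, with the male-biased at 2657 to 3344 CPM and the female-biased at 641 to 814 CPM. The part of this in the terminal complement genes of LBDXL 3W was not tested. The BM 3W YAP-/- libraries held Y-linked counts (181 to 200 CPM), as did BM 3W (158 to 182 CPM). Their female-biased genes summed to 994 to 1109 CPM in BM 3W YAP-/-, against 0.779 to 8.81 CPM in BM 3W. Cyp2a4 alone had 666 and 706 CPM in BM 3W YAP-/-, and 5 of the 10 genes had 0 counts there. The male-biased genes were higher as well, at 3043 to 3445 CPM in BM 3W YAP-/- against 336 to 557 CPM in BM 3W. The part of these genes in the differences of the members was not tested.

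Culture of YAP-/- cells for 3 weeks was set against the fresh YAP-/- cells as well. In BM 3W YAP-/- against FH YAP-/-, 15 members were called lower, where 16.5% of all genes were, and 1 higher, where 19.8% of all genes were. The 1 higher was C6 (127 and 102 CPM in BM 3W YAP-/-, against 21.05 and 20.2 CPM in FH YAP-/-, 2.48 ± 0.83). Its sign differs from that of BM 3W against FH. This comparison sets libraries with Y-linked counts against libraries with almost none, and 4 of 4 Y-linked genes were called higher and 7 of 10 female-biased genes lower in BM 3W YAP-/-. For C6 and for all other members here, culture and this difference cannot be told apart. F13b had 23.3 and 14.2 CPM in BM 3W YAP-/-, against 596 and 602 CPM in FH YAP-/- (-5.00 ± 0.67), and Klkb1 29.6 and 28.8 CPM, against 615 and 625 CPM in FH YAP-/- (-4.41 ± 0.78). C8a (-6.56 ± 1.47) and C9 (-4.05 ± 0.77) were also far lower in the cultured cells. Fibrinogen, C3 and F12 were not called. C3 had 17392 and 12409 CPM in BM 3W YAP-/-, against 24728 and 24362 CPM in FH YAP-/-, and F12 475 and 675 CPM, against 582 and 534 CPM in FH YAP-/-. The count was 31 when only the 4 libraries compared were fitted, a fit whose share of all genes called is not given here.

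Whether YAP-/- goes with another difference in culture than in fresh cells was tested as an interaction, that is, the difference of BM 3W YAP-/- to BM 3W minus that of FH YAP-/- to FH. In this test 16 of 36 members were called with a positive value and 0 with a negative one, where 8.04% of all genes were positive. Yap1 itself was called in this test, with a value of -1.71. It differed by -3.61 in culture and by -1.90 in fresh cells on the log2 scale. The part of this in the values of the members was not tested. C6 had the largest value (9.51 ± 1.30, adjusted p = 0.00192), to which its low level in FH YAP-/- adds. F7 (3.39 ± 0.59), F12 (3.41 ± 0.72), Masp2 (3.50 ± 0.70) and the fibrinogen chains (2.92 to 2.99) were called as well, while in fresh cells the log2 fold changes of these 6 genes by genotype ran from -0.23 (Fga) to 0.08 (F7), none of them called. The count was 4 without either FH YAP-/- library, 5 without either FH library, 7 and 6 without the first and second BM 3W YAP-/- library, and 26 and 8 without the first and second BM 3W library. Total counts alone gave 8. The calls of C6, F7 and Masp2 held under all 24 alternatives.

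Other genes of both pathways differed in both directions in BM 3W. Of 27 other complement genes 23 were tested, and in BM 3W against FH 9 were higher and 9 lower (33.0% and 26.1% of all genes), with a median log2 fold change of 1.07. The 9 higher were C1qa, C1qb, C1qc, Cfp, C3ar1, C5ar1, Vsig4, Clu and Colec10. Clu, the plasma protein clusterin, had 7148 and 10646 CPM in BM 3W, against 2675 and 2739 CPM in FH. C1qa, a chain of C1q, had 129 and 182 CPM in BM 3W, against 10.4 and 7.68 CPM in FH, and C3ar1, the receptor of C3a, differed by 5.96 ± 0.47. Lower were, among others, C1ra (-3.51 ± 0.37) and Serping1 (-2.45 ± 0.44), which encode C1r and the C1 inhibitor. In LBDXL 3W against FH 0 of the 23 were higher and 10 lower (11.7% and 9.60% of all genes). C1qa (at 0.264 and 0.121 CPM in LBDXL 3W) and C1ra (-1.89 ± 0.34) were among the 10. The 12 macrophage markers include C1qa, C1qb, C1qc and Vsig4, so their sum is partly made of the same values. The 12 summed to 1327 to 1372 CPM in BM 3W and 2.38 to 3.20 CPM in LBDXL 3W, against 95.9 to 134 CPM in FH.

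Of 32 other coagulation and fibrinolysis genes, 15 were higher and 13 lower in BM 3W than in FH (33.0% and 26.1% of all genes), with a median of 0.62. Higher were Plau, the urokinase-type plasminogen activator (8.97 ± 1.05), and F3, which encodes tissue factor (2.86 ± 0.51). Plat, the tissue-type activator, had 121 and 165 CPM in BM 3W, against 0.159 and 0 CPM in FH. In LBDXL 3W against FH 5 of the 32 were higher and 4 lower (11.7% and 9.60% of all genes). Plg, from which these activators make plasmin, was lower in BM 3W, as given above. A list of 9 genes joined the vitamin K cycle, which prothrombin, factors VII, IX and X and proteins C and S need, with convertases and tyrosine sulfotransferases of secreted proteins. Of these 9, 7 were lower and 1 higher in BM 3W than in FH, beside the same shares of all genes. Ggcx, the carboxylase of the cycle, was among the 7 (-1.17 ± 0.22). In LBDXL 3W against FH 1 of the 9 was lower, Ggcx (-0.80 ± 0.22), where 9.60% of all genes were.

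Of 18 liver transcription factors and acute-phase receptors, 11 were lower and 2 higher in BM 3W than in FH (26.1% and 33.0% of all genes), with a median of -1.83. Hnf4a had 201 and 135 CPM in BM 3W, against 1065 and 1057 CPM in FH (-2.66 ± 0.33), and Cebpa 28.2 and 28.7 CPM, against 307 and 278 CPM in FH (-3.36 ± 0.41). In LBDXL 3W 5 were lower than in FH, namely Cebpa, Cebpb, Foxa1, Onecut1 and Prox1, and 0 higher (9.60% and 11.7% of all genes). Against BM 3W, 9 were higher and 3 lower in LBDXL 3W (21.1% and 23.7% of all genes), and 6 higher and 3 lower in BM 3W YAP-/- (15.0% and 16.6% of all genes). Whether these levels bear on those of the members was not tested.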

How the data were processed

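The authors deposited raw counts per gene and FPKM per gene for 14 libraries. Per the labels' protocols, total RNA went into a stranded mRNA kit and was sequenced as paired ends. The submitters' processing notes name HISAT2, HTSeq, Cufflinks, Trimmomatic and DESeq, and the build GRCm38.p6; versions, and whether counting used strand, are not given in the sources used here. Exons of Masp2, C1s1, Plg, F5, C2, Fgg and Hc overlap genes on the opposite strand, and C4b, C1s1 and Kng1 have close paralogs, so their counts are uncertain. Symbols of 27 genes were restored from NCBI IDs, and 4326 of 21878 genes were at 0 throughout.

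Counts were fitted with edgeR 4.0.16 in R 4.3.3 (filterByExpr, TMM, 1 model with 7 group means, quasi-likelihood F-test, Benjamini-Hochberg adjustment over 14100 genes), after the procedure was tested on simulated data. Standard errors came from the log2 fold change and its F statistic. FPKM, as the authors computed them, served to compare levels between genes and in limma 3.58.1 on log2(FPKM + 1), for genes whose FPKM averaged 0.5 or more. The 24 alternatives were DESeq2 size factors, total counts alone, DESeq2 1.42.0, a fit on only the groups compared, no filter, a replicate block, removal of the 20 most abundant genes, 3 limma settings, and each of the 14 libraries left out. The labels give no pairing, so the main result has no block.

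The members and lists were chosen with earlier results of these data known, and the Y-linked, sex-biased and Yap1 values were added after the data were seen. All 36 members could be named, as could genes of the 4 further pathway lists. Those printed from the further lists were chosen after their values were seen. Some genes of these lists are not reported here. The floor was set at 3 counts per library, which at depths of 15501005 to 21220365 counts equals 0.141 to 0.194 CPM before TMM scaling. Sequences and coordinates are from RefSeq (GRCm38.p6), matched by symbol or gene ID, and overlaps of exons from GENCODE.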

Additional observations from a re-analysis of the deposited data

Results flagged for a closer look

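For 16 members the difference that goes with YAP-/- was not the same in 3-week BM culture as in fresh cells, by the test of the difference itself in edgeR. The log2 value, which is BM 3W YAP-/- over BM 3W minus FH YAP-/- over FH, was 9.51 for C6, 5.60 for C8b and 4.01 for C8g, which encode parts of the membrane attack complex. In the lectin pathway it was 3.82 for Mbl2 and 3.50 for Masp2, and in complement activation 2.47 for C3, 1.77 for C2 and 1.43 for Cfb. The complement inhibitor C4bp had 3.06. The fibrinogen chains Fgg, Fgb and Fga had 2.99, 2.97 and 2.92. The coagulation factors F12 and F7 had 3.41 and 3.39, and Cpb2 and Vtn had 2.58 and 2.37. All 16 values are positive. Yap1 itself had -1.71 in this test, with -3.61 in culture and -1.90 in fresh cells, and the part of this was not tested. The FH YAP-/- libraries, which all of these values use, hold almost no Y-linked counts and differ from FH in genes known to be biased by sex, so the part of the deletion and that of this difference in FH YAP-/- cannot be told apart.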

How the results depend on the processing

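Of 9504 values of single members under the 24 alternatives, 8752 stayed on the same side of the threshold, 522 lost the call, 226 gained one, and 4 were called with the opposite sign. Signs differed from the main value in 184 cases, 27 of them with total counts alone, and 180 of the 184 were called under neither. None of the 184 concerned a member called in the main result. The 4 called are all Masp1 in BM 3W against FH, where the main value of -0.05 became 1.22 with total counts alone, 1.41 in limma on log2(FPKM + 1) with and without the filter, and 1.46 on log2(FPKM + 0.1). Calls held under all alternatives for 32 of 34 members in BM 3W against FH, 17 of 27 in BM 3D against FH, 12 of 30 in BM 1D against FH, 5 of 18 in LBDXL 3W against FH, 10 of 27 in LBDXL 3W against BM 3W, 13 of 24 in BM 3W YAP-/- against BM 3W and 3 of 16 in the interaction. With total counts alone, the 30 members called in BM 1D became 18 and the 16 of the interaction 8. With limma and no filter BM 1D had 17. Fitting only the groups compared gave 11 calls in place of 27 in LBDXL 3W against BM 3W, 31 in place of 16 in BM 3W YAP-/- against FH YAP-/-, 25 in place of 1 in FH YAP-/- against FH, 2 in place of 12 in BM 3W against BM 3D, and 0 in place of 1 in BM 3D against BM 1D. DESeq2 called 2 in FH YAP-/- against FH, and it, the fit with no filter and both filtered limma settings called 2 in BM 3D against BM 1D. Leaving out 1 library gave 18 to 31 calls in BM 1D, 18 to 30 in BM 3D and 33 to 35 in BM 3W against FH. It gave 8 to 22 in LBDXL 3W against FH, 22 to 28 in LBDXL 3W and 14 to 28 in BM 3W YAP-/- against BM 3W, 8 to 22 in BM 3W YAP-/- against FH YAP-/-, 0 to 2 in FH YAP-/- against FH, 0 to 2 in BM 3D against BM 1D, 4 to 25 in BM 3W against BM 3D and 4 to 26 in the interaction. Shares of all genes called are not given for most of these fits, so a count that moved may follow all genes. The causes of these moves were not tested. The labels do not say that a replicate number pairs libraries. Deviations of same-numbered libraries correlated at -0.0231 to 0.461 over 21 pairs of groups, above 0.1 in 5 of them, all 5 between cultured groups, so a partial pairing was not excluded. With a replicate block the counts were 31 in BM 1D and 35 in BM 3W against FH, 18 in LBDXL 3W against FH, 27 in LBDXL 3W and 24 in BM 3W YAP-/- against BM 3W, and 15 in the interaction. With 2 libraries a group and a wide spread between cultured libraries, small differences were not detectable.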
